A study of Mus musculus with 25 samples.

Results

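The Maf proteins are basic leucine zipper transcription factors, and 5 genes of the family are described here in a mouse alpha cell line and a mouse beta cell line: Mafa and Maf, which encode large Maf proteins, and Maff, Mafg and Mafk, which encode small ones. The members were taken by symbol from the RNA-seq table (5 of 24439 genes) and by nearest annotated gene from the ATAC-seq table (30 of 65053 consensus peaks). Of these peaks 17 were assigned to Maf, 7 to Mafa, 3 to Mafg, 2 to Mafk and 1 to Maff. Distances in kb from a gene's start are the deposited ones, measured from the start in the authors' annotation, which differed by under 1 kb from the GENCODE start that bounds the gene coordinates given here. Other genes of the family were not analysed here.

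The study profiled open chromatin with ATAC-seq and transcripts with RNA-seq in alpha TC1 clone 6 (αTC1) and beta-TC-6 (βTC6), asking which regulatory elements and genes differ between them. Each line had 5 ATAC-seq libraries of 100000 cells and 3 RNA-seq libraries, and 9 further ATAC-seq libraries were made from counted mixtures of both lines, with βTC6 cells making up 10% to 90%. No treatment was given, each cell type is represented by 1 established pancreatic line, and the lines were grown in different media, so line and medium cannot be told apart. The labels do not say that replicates were separate cultures, so the p-values measure the spread between these libraries, which may be technical.

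Large Maf proteins carry an activation domain and can drive transcription on their own. Mafa is the family's beta cell activator: it binds the insulin promoter and marks mature beta cells, and Maf is expressed in islet alpha cells, where it can activate the glucagon gene. Small Maf proteins lack an activation domain and act as dimers, among themselves or with cap n collar and Bach proteins such as Nrf2 (Nfe2l2) and Bach1, on antioxidant response elements.

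The libraries carried the hormone genes of their labels. Ins2, which encodes insulin, ranged from 23541 to 35748 FPKM (fragment counts scaled by transcript length and library size) in βTC6 and from 0.19 to 0.64 in αTC1. Gcg, which encodes glucagon, ranged from 12113 to 14406 FPKM in αTC1 and from 172 to 267 in βTC6, and βTC6 also carried 207 to 325 FPKM of Sst and 3.70 to 50.8 of Ppy, the somatostatin and pancreatic polypeptide genes. The summed FPKM of each list of acinar, duct, endothelial, immune and fibroblast markers was at most 3.73 in any library. RNA-seq totals ran from 21795367 to 25876765 counts, and reads in consensus peaks ran from 4397851 to 10374903 over the 10 pure libraries. Genes were called differentially expressed (DE), and peaks differentially accessible (DA), when the FDR was below 5% and the log2 fold change exceeded 2 in either direction. Fold changes are βTC6 over αTC1 throughout.

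The sequences below were read from mm9 (NCBIM37). They come from neighbouring Maf peaks that were DA in opposite directions, from the stretch before the start of Maff, whose peak was DA, and from an intronic Mafg peak that was not DA and is shown for the Maf-type letters it holds. Capitals mark exact matches on either strand to the Maf half-site TGCTGAC, the antioxidant response element core TGACNNNGC, the cAMP response element TGACGTCA, the forkhead core TGTTTAC and the homeodomain core TAATTA. Only the half-site search belonged to the planned Maf motif search, and the other 4 cores were chosen after the files and sequences had been seen. The first 3 are the central 300 bases of a peak on the plus strand, and the last is the 250 bases before the annotated start of Maff, also on the plus strand. The Maf windows lie in intergenic sequence at chr8:118458778-118459077 and chr8:118466995-118467294. The Mafg window lies in an intron of Mafg at chr11:120494142-120494441, and the Maff stretch at chr15:79177721-79177970.
Maf peak 228.1 kb upstream: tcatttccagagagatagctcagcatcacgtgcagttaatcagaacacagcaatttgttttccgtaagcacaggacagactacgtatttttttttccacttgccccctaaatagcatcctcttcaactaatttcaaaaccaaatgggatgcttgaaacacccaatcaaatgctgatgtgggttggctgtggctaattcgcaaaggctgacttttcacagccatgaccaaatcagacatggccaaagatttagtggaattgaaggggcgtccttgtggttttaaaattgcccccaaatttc
Maf peak 236.3 kb upstream: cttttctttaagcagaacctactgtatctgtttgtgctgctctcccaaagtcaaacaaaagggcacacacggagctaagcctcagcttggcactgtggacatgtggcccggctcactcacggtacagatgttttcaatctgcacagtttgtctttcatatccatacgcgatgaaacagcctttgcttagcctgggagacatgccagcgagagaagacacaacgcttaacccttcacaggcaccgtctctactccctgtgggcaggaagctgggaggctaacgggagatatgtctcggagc
Mafg intronic peak: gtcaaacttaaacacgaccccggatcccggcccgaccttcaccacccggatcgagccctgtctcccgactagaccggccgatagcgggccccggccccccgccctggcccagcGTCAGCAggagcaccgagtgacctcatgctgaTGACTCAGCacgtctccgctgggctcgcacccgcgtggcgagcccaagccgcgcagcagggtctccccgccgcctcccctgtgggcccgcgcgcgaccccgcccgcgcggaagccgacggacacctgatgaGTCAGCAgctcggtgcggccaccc
Maff upstream stretch: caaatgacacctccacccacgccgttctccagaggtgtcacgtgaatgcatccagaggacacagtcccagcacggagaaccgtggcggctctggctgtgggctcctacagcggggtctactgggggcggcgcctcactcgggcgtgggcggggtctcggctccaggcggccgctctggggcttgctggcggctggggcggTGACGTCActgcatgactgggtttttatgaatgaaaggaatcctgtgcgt

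Transcript levels separated the family into 2 genes that were expressed in βTC6 and under 1 FPKM in every αTC1 library, and 3 that were expressed in both lines. Mafa (ENSMUSG00000047591, chr15:75577273-75578352, minus strand, a gene of a single exon) was at 0.09, 0.12 and 0.57 FPKM in the αTC1 libraries and at 41.1, 46.0 and 55.7 FPKM in the βTC6 libraries. These FPKM values rest on 2, 3 and 15 counts in αTC1 and on 1119 to 1448 counts in βTC6. All 3 βTC6 libraries lay above all 3 αTC1 libraries, and the log2 fold change was 7.52 ± 0.35 (SE, n = 3 per line), with an adjusted p of 1.58e-07 by edgeR's quasi-likelihood test. In bulk RNA of this kind, fewer expressing cells and less RNA per cell cannot be told apart. The size depended on αTC1 replicate 3, which held 15 of the 20 αTC1 counts: without it the log2 fold change was 8.86. Of the beta cell genes in that library, Ins1 and Pdx1 were at 0 as in the other αTC1 libraries, Ins2 was at 0.19 FPKM, Iapp at 0.20 and Nkx6-1 at 14.1. Pcsk1 was at 0.25 FPKM there, against 0.15 and 0.06 in the other αTC1 libraries, and a part of other cells in the Mafa value was not tested.

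Maff (ENSMUSG00000042622, chr15:79177971-79189502, plus strand), which encodes a small Maf protein, followed the same pattern at a lower level. Its FPKM were 0.24, 0.39 and 0.50 in αTC1 and 16.1, 18.0 and 21.5 in βTC6, from 10 to 24 counts and 796 to 1016 counts. The libraries of the lines did not overlap, and the log2 fold change was 5.66 ± 0.23 (adjusted p = 7.05e-08, edgeR). Mafa and Maff were the 2 DE members among the 5, both higher in βTC6, where 10.2% of the 12195 tested genes were DE in that direction and 4.08% in the other.

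Maf (ENSMUSG00000055435, chr8:118206842-118231694, minus strand) was expressed in both lines and lower in βTC6. It stood at 32.6, 34.2 and 34.9 FPKM in αTC1 and at 16.6, 27.2 and 18.4 in βTC6. The ranges were apart, with βTC6 replicate 2 nearest to αTC1. Its log2 fold change was -0.71 ± 0.16 with an adjusted p of 0.00319 (edgeR), short of the fold threshold for a DE gene, and 74.6% of all tested genes passed the FDR alone (38.7% higher in βTC6 and 36% higher in αTC1). An opposite-strand transcript, Gm15655, overlaps exons of Maf, and reads of the pair may not be separable. When libraries were scaled by the spike-in RNAs in place of TMM the estimate was -0.76 with an adjusted p of 0.168.

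Mafg and Mafk, which encode the remaining small Maf proteins, did not pass the test. Mafg (ENSMUSG00000051510, chr11:120486431-120494914, minus strand) was at 43.1, 43.7 and 49.9 FPKM in αTC1 and at 39.9, 36.5 and 44.3 in βTC6, with a log2 fold change of -0.0053 ± 0.086 (adjusted p = 0.959, edgeR). Mafk (ENSMUSG00000018143, chr5:140267467-140278607, plus strand) was at 6.43, 6.27 and 7.70 FPKM in αTC1 and at 6.24, 6.39 and 7.72 in βTC6, with a log2 fold change of 0.027 ± 0.13 (adjusted p = 0.858, edgeR). The libraries of the lines overlapped for both genes, and the sign of either estimate changed when single libraries were left out and, for Mafk, also with spike-in scaling. Both counts carry an uncertainty of assignment, since annotated exons of Mafg overlap exons of Sirt7 on the same strand while exons of Mafk overlap those of Tmem184a on the opposite strand, and the counting is not stated to have used strand.

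**Figure D1:**
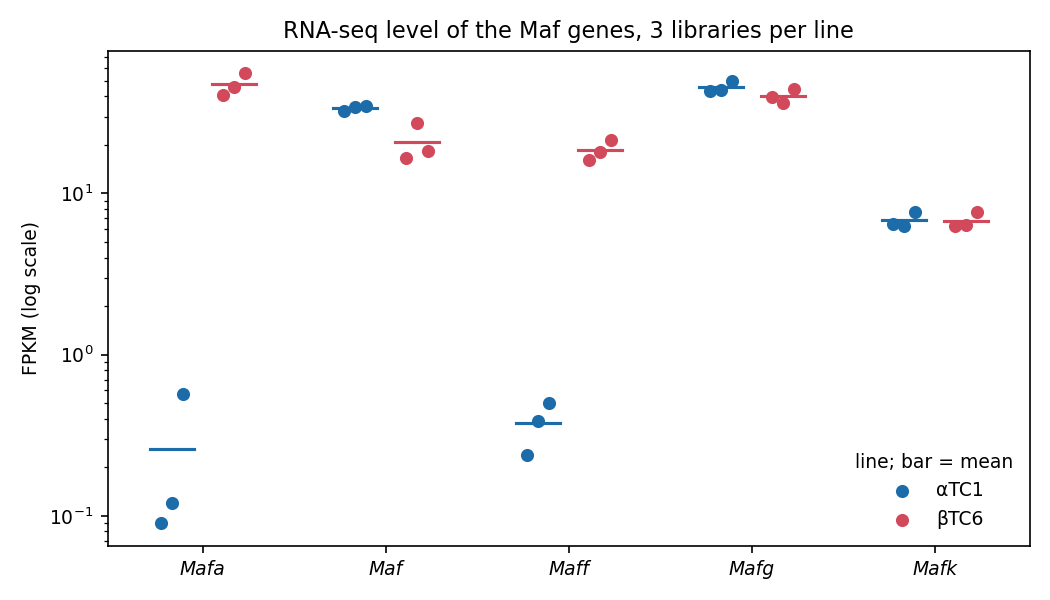
FPKM on a log axis for each of 3 RNA-seq libraries per line (points) with the mean (horizontal bars). Mafa and Maff sit under 1 FPKM in every αTC1 library and above 16 FPKM in every βTC6 library, Maf is somewhat lower in βTC6, and the points of the lines overlap for Mafg and Mafk.

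The order of the members differed between the lines on the FPKM scale, which is per transcript length. In αTC1 the order was Mafg, Maf, Mafk, Maff and Mafa, and only the last 2 overlapped in range. In βTC6 it was Mafa, Mafg, Maf, Maff and Mafk, with overlapping ranges between Mafa and Mafg and between Maf and Maff. The mean level of Mafa exceeded that of 5.25% of tested genes in αTC1 and of 83.8% in βTC6. The corresponding shares for Maff were 5.94% and 60.0%, whereas Mafg lay above 82.8% and 80.4% of genes. Tested genes needed at least 1 FPKM in all libraries of either line, and Mafa and Maff met this in βTC6 alone. Their low ranks in αTC1 thus follow in part from the filter, which leaves out genes low in both lines.

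As a share of the summed FPKM of the 5 genes, Mafa made up 0.287% ± 0.280 (SD, n = 3) in αTC1 and 35.4% ± 1.97 in βTC6, and Maff 0.429% ± 0.125 and 13.8% ± 0.653. The share of Maf was 39.0% ± 1.57 in αTC1 and 15.5% ± 4.19 in βTC6, and that of Mafg 52.4% ± 0.848 and 30.2% ± 3.05. The summed level of Mafa and Maf ranged from 32.7 to 35.5 FPKM in αTC1 and from 57.6 to 74.1 FPKM in βTC6. The 3 small Maf genes together ranged from 49.8 to 58.1 FPKM in αTC1 and from 60.8 to 73.5 FPKM in βTC6. Both sums were higher in every βTC6 library than in any αTC1 library, as values per library and without a test.

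DA peaks were among those assigned to Mafa, Maf and Maff. The assignment is by nearest annotated gene and does not show that a peak acts on that gene. Of the 30 peaks, 7 were DA with more signal in βTC6 (limma on log2 of the TMM-normalized read count plus 1) against 12.9% of all peaks, and 1 was DA with more signal in αTC1 against 5.38%. With a pseudocount of 5 in place of 1 the counts were 1 and 0, with the Maff start at 1.80 and the Maf peak 228.1 kb upstream at 1.67, and with edgeR on the recovered reads they were 10 and 1. At the FDR alone 13 were higher in βTC6, 8 were higher in αTC1 and 9 did not pass, with a median log2 fold change of 0.19 beside 0.0011 over all peaks. Over all peaks 78% passed the FDR alone, 39.9% with more signal in βTC6 and 38.1% with more in αTC1. Of the 8 DA peaks, 6 with more signal in βTC6 and the 1 with more in αTC1 lay more than 2 kb from the start, among 24 such Maf-assigned peaks. For distal peaks of all genes the DA shares were 15.1% and 6.53%, and of all 11911 DA peaks 7605 with more signal in βTC6 and 3296 with more in αTC1 were distal. The counts were 8 and 0 when replicates 1 to 3 were tested alone and 6 and 2 with replicates 4 and 5 alone, sets for which the study computed mitochondrial read shares in different ways.

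**Figure D2:**
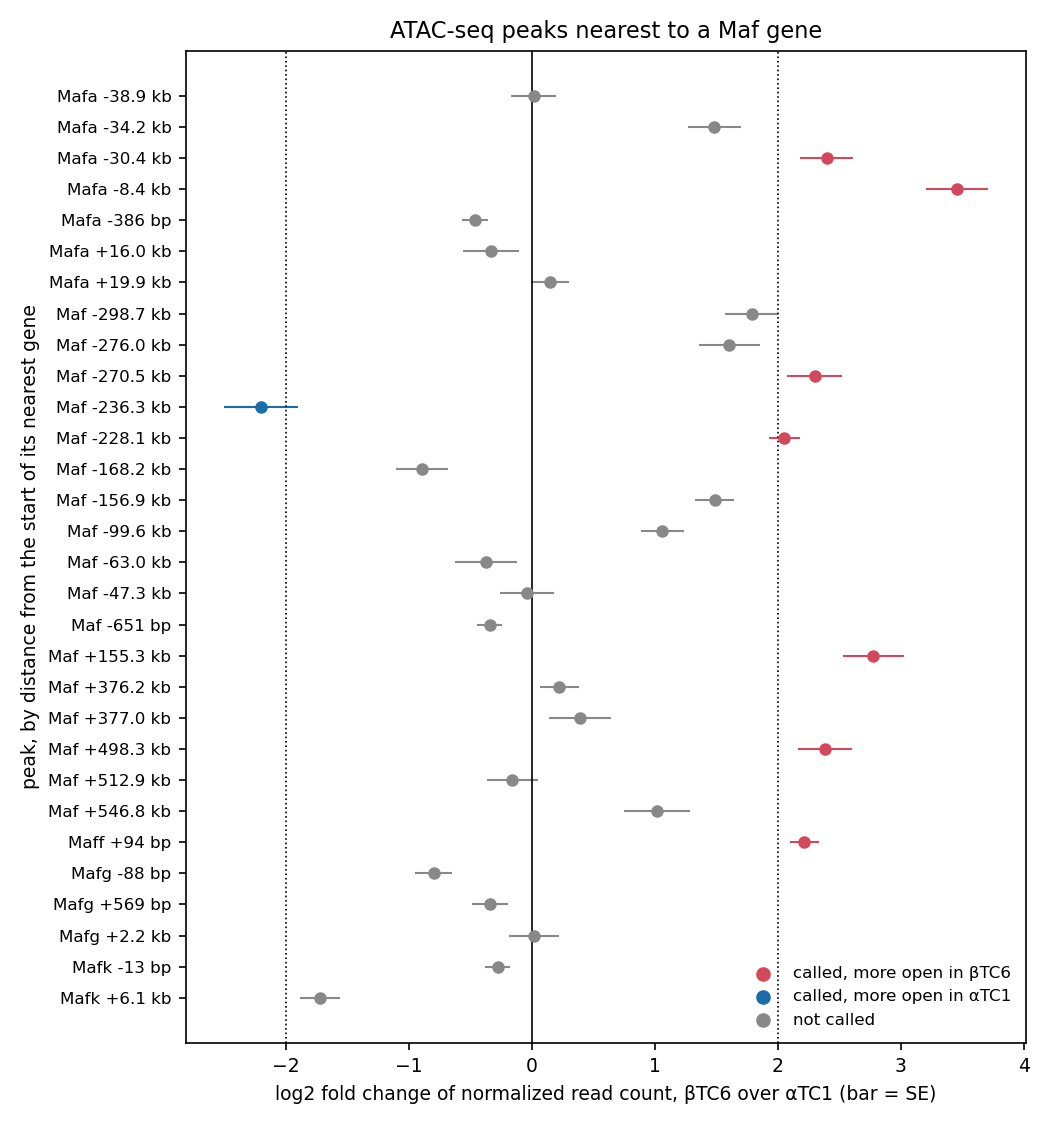
Log2 fold change (βTC6 over αTC1, bar = SE) of the normalized read count of each of the 30 peaks, by nearest gene and deposited distance from its start, with dotted lines at the threshold of 2. The 7 DA peaks to the right are assigned to Mafa, Maf and Maff, and the 1 to the left to Maf.

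The largest difference at a member was upstream of Mafa. The peak 8.4 kb upstream, whose centre lies in an intron of Zc3h3, the gene next to Mafa, and whose edge reaches a coding exon of it, had normalized read counts of 1.82, 0.983, 2.40, 0.273 and 2.02 in αTC1. In βTC6 its normalized read counts were 21.4, 18.9, 26.4, 24.8 and 36.4. These correspond to 2 to 16 reads per αTC1 library and 92 to 388 reads per βTC6 library, with no overlap. The log2 fold change was 3.46 ± 0.25 (adjusted p = 1.95e-10, limma), and 3.11 and 3.99 within replicates 1 to 3 and replicates 4 and 5.

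A weaker peak 30.4 kb upstream of Mafa, in another intron of Zc3h3, was also DA. It had 0.136 to 1.12 normalized reads in αTC1 and 5.99 to 9.01 in βTC6, and the lowest value the table holds stands for 1 read. The log2 fold change was 2.40 ± 0.22 (adjusted p = 4.80e-09, limma). Its neighbour 34.2 kb upstream rose from 2.91 ± 0.599 (SD, n = 5) to 10.1 ± 2.54 normalized reads, a log2 fold change of 1.48 ± 0.21 that passed the FDR and not the fold threshold. The peak 38.9 kb upstream and the pair of peaks 16 and 19.9 kb downstream of the start had log2 fold changes between -0.33 and 0.15 and did not pass the FDR.

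At the Mafa start itself βTC6 did not have more signal. The peak centred 385 bp upstream of the GENCODE start (chr15:75578228-75579247), which reaches into the single Mafa exon, was open in both lines. Its normalized read counts were 43.6, 53.0, 52.6, 55.3 and 58.9 in αTC1 and 47.6, 36.1, 38.8, 33.0 and 34.7 in βTC6. The ranges overlapped at 1 library of each line, and the log2 fold change was -0.46 ± 0.11 (adjusted p = 0.000559, limma). Within replicates 1 to 3 and replicates 4 and 5 it was -0.28 and -0.74. After quantile normalization in place of TMM it was -0.076 with an adjusted p of 0.54 (limma), so the call at the FDR depended on the scaling. The gene whose transcript was nearly absent from αTC1 thus had the most signal of its 7 peaks at its start in that line. The central 200 bases of this peak were 80.5% G and C, beside a median of 65.0% over peaks within 2 kb of a start.

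**Figure D3:**
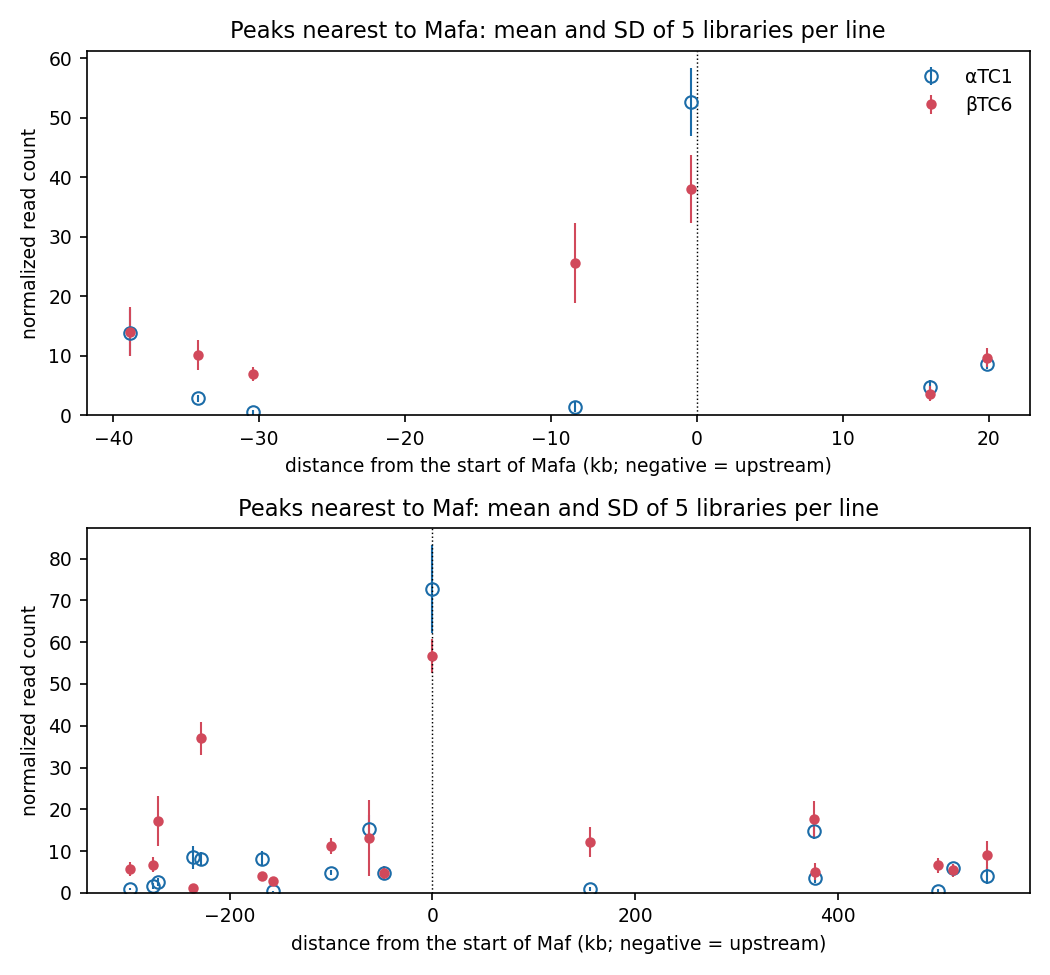
Mean normalized read count with SD (n = 5 per line) of the peaks assigned to Mafa (top) and Maf (bottom), against the deposited distance from the gene's start in kb. The peaks at the starts are high in both lines, and the βTC6 points stand above the αTC1 points 8.4 kb upstream of Mafa and 228.1 kb upstream of Maf.

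Maff had a single assigned peak, and it was DA. The peak covers the annotated start (chr15:79177527-79178876), and its centre lies over an exon 230 bp downstream of the GENCODE start and 94 bp downstream of the deposited one. Its normalized read counts were 7.14, 7.59, 9.47, 7.92 and 6.36 in αTC1 and 40.8, 42.0, 36.8, 37.7 and 38.5 in βTC6. Every βTC6 library was above every αTC1 library, the log2 fold change was 2.22 ± 0.12 (adjusted p = 2.65e-12, limma), and it was 2.18 and 2.27 within the 2 replicate sets. Of the 5 members, Maff alone had a DA peak as the one nearest its start. Among all peaks within 2 kb of a start 5.51% were DA with more signal in βTC6 and 1.41% with more in αTC1. The 250 bases upstream held 1 cAMP response element, a match found upstream of 1.90% of the 24372 genes placed on mm9, and no Maf half-site. The 250 bases upstream of Maf, whose transcript was lower in βTC6, held 1 as well.

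The 17 peaks assigned to Maf spread from 298.7 kb upstream to 546.8 kb downstream of its start, and moved in both directions. Of these, 4 were DA with more signal in βTC6 and 1 with more signal in αTC1, while 9 and 3 passed the FDR in those directions. All of these DA peaks lay more than 150 kb from the start, and a link to the Maf transcript was not tested. The strongest of the 4 by read count lay 228.1 kb upstream (chr8:118458357-118459497). Its normalized read counts were 7.42, 6.60, 7.97, 8.46 and 10.5 in αTC1 and 34.7, 38.4, 31.4, 39.9 and 40.7 in βTC6. The lines did not overlap, with a log2 fold change of 2.05 ± 0.13 (adjusted p = 2.58e-11, limma). This value is close to the threshold, and it was 1.99 without αTC1 replicate 2 and 1.98 with replicates 4 and 5 alone.

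The only DA peak of the family with more signal in αTC1 lay next to it, 236.3 kb upstream (chr8:118466902-118467386). Normalized read counts there were 9.66, 7.16, 5.41, 7.78 and 12.7 in αTC1 and 1.56, 2.26, 1.76, 0.285 and 0.0939 in βTC6. In reads, the βTC6 libraries held 11, 11, 13, 2 and 1, so the last 2 were lower than the first 3. The log2 fold change was -2.20 ± 0.30 (adjusted p = 1.22e-06, limma), and -1.53 within replicates 1 to 3, -3.21 within replicates 4 and 5 and -1.99 without βTC6 replicate 5. These neighbouring elements differed in opposite directions. Neither printed window held a match to the searched cores.

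The other 3 DA peaks assigned to Maf were low in αTC1. The peak 270.5 kb upstream (chr8:118500896-118501656) ranged from 1.64 to 4.19 normalized reads in the αTC1 libraries and from 12.4 to 27.5 in the βTC6 libraries (log2 fold change 2.30 ± 0.23). The peak 155.3 kb downstream of the start (chr8:118075220-118075773) had 0.144 to 1.5 and 9.43 to 17.8 (2.78 ± 0.25). The peak 498.3 kb downstream (chr8:117732248-117732748), in an intron of the neighbouring gene Wwox, had 0.136 to 1.01 and 4.46 to 8.92 (2.38 ± 0.22). At all 3 the lowest βTC6 library was above the highest αTC1 library, with adjusted p at or below 1.43e-08 (limma). Short of the threshold were peaks 298.7, 276.0 and 156.9 kb upstream, with log2 fold changes of 1.79, 1.61 and 1.49. On the recovered reads, without the added pseudocount, edgeR gave 2.59, 2.11 and 2.97 for these 3, which were DA in that test. The rest of the Maf peaks lay between -0.89 and 1.06.

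The peak over the start of Maf (chr8:118230405-118232485), centred in the gene 249 bp downstream of the GENCODE start and 651 bp upstream of the deposited one, had the highest mean of all 30 in both lines. Its normalized read counts were 83.1, 79.1, 77.2, 66.6 and 57.5 in αTC1 and 58.9, 50.5, 54.9, 59.4 and 60.2 in βTC6. The lines overlapped through αTC1 replicate 5. The log2 fold change was -0.34 ± 0.10 (adjusted p = 0.0042, limma), but -0.54 in replicates 1 to 3, -0.049 in replicates 4 and 5 and 0.11 after quantile normalization, so its direction depended on the scaling.

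The starts of Mafg and Mafk were open in both lines, with somewhat less signal in βTC6 by TMM. The Mafg peak centred 35 bp upstream of the GENCODE start (chr11:120494761-120495137), which also overlaps an exon of the adjacent Gm17586, had 15.0 to 25.7 normalized reads in αTC1 and 8.64 to 13.8 in βTC6. Its log2 fold change was -0.80 ± 0.15 (adjusted p = 8.07e-05, limma). The Mafk peak over the start (chr5:140267010-140267944), centred 10 bp downstream of the GENCODE start, had 28 to 29.8 and 20.5 to 27.5 normalized reads, a log2 fold change of -0.28 ± 0.10 (adjusted p = 0.0166, limma). Neither range overlapped between the lines, yet neither peak was DA and neither transcript passed the test. With replicates 4 and 5 alone the adjusted p-values were 0.0586 and 0.243, and after quantile normalization Mafk was at -0.073 (adjusted p = 0.552, limma).

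A second Mafk peak, 6083 bp downstream of the GENCODE start (chr5:140272919-140274182), is described although the naming rule did not select it. It covers an annotated exon of Mafk and had normalized read counts of 24.8, 23.9, 20.7, 23.5 and 27.4 in αTC1 and 6.67, 6.56, 9.59, 6.56 and 4.32 in βTC6. The lines were apart, with a log2 fold change of -1.72 ± 0.16 (adjusted p = 6.92e-09, limma). This difference fell short of the threshold of 2 with all libraries and passed it at -2.06 with replicates 4 and 5 alone, while the Mafk transcript level overlapped between the lines.

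The intronic Mafg peak printed above (chr11:120493944-120494639, centre 623 bp downstream of the GENCODE start) held the most matches to the half-site and the antioxidant response element core together among the 30. Its 300 bases contained 2 half-sites and 1 antioxidant response element core, and also the MafA consensus TGCTGACTCA on the minus strand, of which the last half-site is a part. In 300 bases 7.01% of all peaks held a half-site, 13.9% an antioxidant response element core and 0.374% the MafA consensus. The peak was open in both lines, with a mean of 16.1 ± 2.2 normalized reads in the αTC1 libraries and 12.6 ± 2.76 in the βTC6 libraries. These overlapped through βTC6 replicate 1, and the log2 fold change was -0.34 ± 0.15 (adjusted p = 0.0413, limma). A match of letters is a description and does not show binding.

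Exact matches to the full Maf consensus letters were few in the peaks at large. A search for exact letters misses variant sites, and the share expected by chance was not computed. In the central 200 bases, 174 of 65053 peaks held the MafA consensus (0.267%), 24 the MafK consensus and 6 the MafF consensus, all 3 searched as the consensus letters of the HOMER motif collection. The half-site was in 3162 peaks (4.86%) and in 2 of the 30 Maf-assigned peaks. Of the DA peaks, 4.97% of those with more signal in βTC6 held the half-site (95% Wilson interval 4.53 to 5.46), 6.20% of those with more signal in αTC1 (5.44 to 7.04), and 4.76% of the rest (4.58 to 4.94). Of the 174 peaks with the MafA consensus, 19 (10.9%) were DA with more signal in βTC6 and 12 (6.90%) with more in αTC1, beside 12.9% and 5.38% of all peaks. For the MafK consensus 2 and 5 of 24 peaks were DA in these directions (8.33% and 20.8%), and for the MafF consensus 4 and 0 of 6. The last 2 sets are small, and none of these shares was tested. The intervals cover counting error over peaks only.

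The mixtures gave values for the 8 DA peaks in libraries that had not been used to call them, but that held cells of the same lines. A peak that differs between the lines is thus bound to tend to follow the composition. Normalized read counts of the 7 peaks with more signal in βTC6 rose with the percentage of βTC6 cells over the 9 mixtures, with Pearson's r from 0.88 to 0.99. The αTC1 peak fell, with r of -0.73 and Spearman's rho of -0.78. All 16 correlations passed an exact 2-sided permutation test, with a largest adjusted p of 0.0307 over both measures and all 8 peaks. This was the rule among DA peaks: of all that had more signal in βTC6 97.7% rose with an unadjusted exact p under 0.05 (median r 0.93), and of all with more in αTC1 97.5% fell (median r -0.92). Without the mixtures at 10% and 90% the absolute r ranged from 0.59 to 0.98.

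The Mafa peak 8.4 kb upstream followed the composition most closely. From 10% to 90% βTC6 cells its normalized read counts were 2.64, 7.29, 9.85, 10.2, 15.1, 18.6, 20.7, 26.8 and 28.2. They increased at every step, so rho was 1 (p = 5.51e-06, the smallest the permutations can give) and r was 0.99 (adjusted p = 4.41e-05, exact permutation test). The Maff peak rose from 5.89 to 34.6 normalized reads, with r of 0.94 and rho of 0.93 (adjusted p = 0.000558 and 0.00133, exact permutation test). All 9 mixtures lay below the straight line between its pure means, which was also so for 12.1% of the 8409 peaks that were DA with more signal in βTC6. The Maf peak 236.3 kb upstream had the lowest absolute r of the 8, with normalized read counts of 9.14, 6.42, 8.74, 11.2, 2.92, 5.08, 4.37, 3.83 and 2.82.

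**Figure D4:**
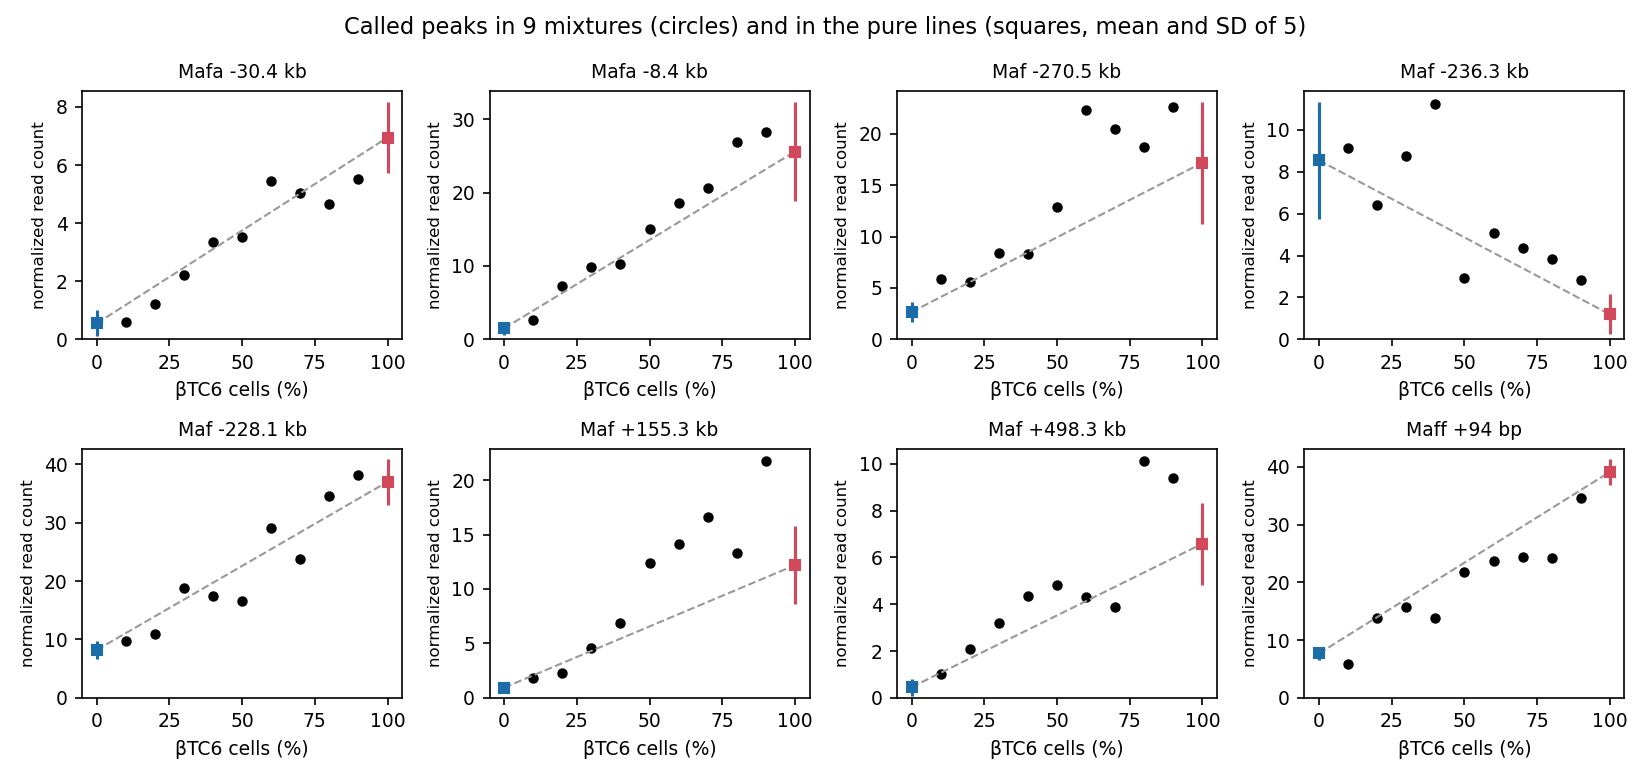
Normalized read count of the 8 DA peaks against the percentage of βTC6 cells in 9 mixtures (circles), with the pure lines at 0% and 100% (squares, mean and SD of 5 libraries) joined by a dashed line. In all, 7 peaks rise and 1 falls, and the circles of the Maff peak all lie under the line.

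Genes that work with Mafa were more often higher in βTC6 than in αTC1. Of 18 partners and known or proposed targets, 9 were DE higher in βTC6 and 1 higher in αTC1, beside 10.2% and 4.08% of all tested genes, with a median log2 fold change of 1.88 beside 0.0094 over all tested genes. Ins1, Pdx1 (which activates insulin with Mafa) and Glp1r (the GLP-1 receptor) had 0 counts in every αTC1 library. Against a floor of 3 counts per library they were at least 15139-fold, 3723-fold and 706-fold higher in βTC6. Also DE were Ins2 and Slc2a2 (the glucose transporter Glut2, at most 0.06 FPKM in αTC1 and 4.23 to 5.56 in βTC6). Pcsk1 (a prohormone convertase), G6pc2 (an islet glucose-6-phosphatase) and Nkx6-1 (a beta cell homeodomain factor) had log2 fold changes of 9.13 ± 0.53, 4.62 ± 0.11 and 2.19 ± 0.09. Prlr, the prolactin receptor, was DE in the other direction (-2.62 ± 0.34, adjusted p = 9.73e-05, edgeR). Among the rest, Pcsk2, Slc30a8, Isl1 and Pax6 differed by less, with log2 fold changes of -0.66, 0.74, -0.57 and 1.57. With spike-in scaling Pcsk2, Slc30a8 and Isl1 did not pass the FDR (adjusted p = 0.269, 0.209 and 0.270, edgeR), and 10 genes of the list passed it higher in βTC6 and 1 higher in αTC1, in place of 12 and 3.

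On the glucagon side 6 of 9 tested rows (8 genes, of which Irx2 has 2 identifiers) were DE higher in αTC1 and 0 higher in βTC6, beside 4.08% and 10.2% of all tested genes. Gcg itself had a log2 fold change of -5.76 ± 0.23, Irx1 -3.56 ± 0.22 and the main Irx2 row -3.66 ± 0.09, the latter pair being alpha cell homeodomain factors. Pou3f4, a POU domain activator of glucagon, had -6.85 ± 0.13. Pax6, Foxa2 and Ttr were not DE, with log2 fold changes of 1.57, -0.13 and 0.48. Maf, a glucagon activator that was not counted in this list, had -0.71 ± 0.16.

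Of the cap n collar and Bach partners of the small Maf proteins, grouped with their inhibitor, 5 of 7 were tested and 0 were DE. At the FDR alone 3 of the 5 passed, all lower in βTC6, where 74.6% of all tested genes passed and 36% were lower in βTC6. Nfe2l2 (Nrf2) was at 22.0 to 22.6 FPKM in αTC1 and 9.95 to 12.6 in βTC6 (log2 fold change -0.95 ± 0.10). Bach1, a repressor that competes with Nrf2 for small Maf partners, had -0.75 ± 0.12, and Keap1, the inhibitor of Nrf2, -0.43 ± 0.10. Nfe2l1 was the most abundant of the list in βTC6 at 55.6 to 67.6 FPKM and did not pass the test (0.14 ± 0.08). With spike-in scaling 0 of the 5 passed the FDR.

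Genes with antioxidant response elements, the known targets of Nrf2 with small Maf, were mixed. Of 15 tested of 16, 0 were DE, while 9 were higher in βTC6 and 3 lower at the FDR alone. The 12 that passed are near the 74.6% of all tested genes that did so (38.7% higher and 36% lower in βTC6). By mean FPKM over both lines the most abundant were Fth1 (ferritin heavy chain), Prdx1 (a peroxiredoxin), Txnrd1 (a thioredoxin reductase) and Taldo1 (a pentose phosphate enzyme). Their log2 fold changes were -0.55 ± 0.10, -0.21 ± 0.12, -0.64 ± 0.08 and 0.69 ± 0.11, and only Prdx1 of these 4 did not pass the FDR. The largest change in each direction was 1.23 ± 0.24 for Hmox1 (heme oxygenase 1) and -0.99 ± 0.14 for Abcc1 (an efflux pump). The median was 0.46, and with spike-in scaling 2 were higher and 0 lower at the FDR.

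Fos and Jun proteins, which can dimerize with Maf proteins, differed with much spread between the βTC6 libraries. Listed with their genes were Atf3 and Batf3, which were not DE. Of the 8 tested genes of this list, 3 (Fos, Fosb and Jun) were DE higher in βTC6, beside 10.2% of all tested genes. Only 1, Fosl2, was DE higher in αTC1 (-2.37 ± 0.27), beside 4.08%. Fos was at 8.37 to 26.6 FPKM in αTC1 and at 104, 18.3 and 236 in βTC6, and βTC6 replicate 3 was the highest for Fosb, Jun, Junb and Jund as well. Without that library Fos, Fosb and Jun had log2 fold changes of 1.71, 0.44 and 1.77 and were not DE. Fosb, with an adjusted p of 0.0482 (edgeR) on all libraries, also lost its call when any one of 4 other libraries was left out and with DESeq2 (adjusted p = 0.0679). Maff ranged from 16.1 to 21.5 FPKM over the same 3 libraries, and both Maff and Mafa were also highest in βTC6 replicate 3. A link between these levels was not tested. Of Mafa's kinases and its proteasome activator, Gsk3b, Mapk14 and Psme3 passed the FDR with -0.53, -0.66 and -0.56, Gsk3a did not (-0.030), and 0 of 4 was DE, where 74.6% of all tested genes passed the FDR. With spike-in scaling 0 of the 4 passed the FDR, with adjusted p of 0.347, 0.212 and 0.302 (edgeR) for Gsk3b, Mapk14 and Psme3.

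Genes with a level pattern most like that of each member were found by Euclidean distance of log2(FPKM + 1) over the 6 libraries. Nearest to Mafa were Xlr3b, Ffar1 (a fatty acid receptor) and S100a6, at distances of 0.529, 0.665 and 0.666. For Maff they were Akap12, 2010011I20Rik and Aebp1 (0.256, 0.432 and 0.469). The nearest to Maf were Hccs, Troap and Ftsj1 (0.419, 0.436 and 0.445), to Mafg Numa1, Pkig and Trim37 (0.158, 0.164 and 0.168), and to Mafk 3110056O03Rik, Ttc28 and Afmid (0.170, 0.208 and 0.211).

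Genes beside the members in the genome were counted as well. Within 100 kb of a start, the RNA-seq table held 3 other genes at Mafa, 5 at Maff, 19 at Mafg, 4 at Mafk and none at Maf, and 2 of the 24 tested were DE, beside 14.3% of all tested genes in either direction. At Maff it was Csnk1e, a casein kinase gene, with a mean of 2.03 FPKM in the αTC1 libraries and 23.6 in the βTC6 libraries (log2 fold change 3.62 ± 0.16). At Mafk it was Tmem184a, at 0.02 and 2.04 FPKM, the gene whose exons overlap those of Mafk. Zc3h3, in which the upstream Mafa peaks lie, was at 7.78 FPKM in αTC1 and 10.3 in βTC6, with a log2 fold change of 0.46 ± 0.09 (adjusted p = 0.00147, edgeR), against 7.52 for Mafa.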

How the data were processed

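ATAC-seq of 10 pure and 9 mixed libraries and RNA-seq of 6 libraries were used. The signal values deposited by the authors are TMM-normalized read counts per consensus peak: reads were trimmed (Trimmomatic 0.32), aligned to mm9 (BWA 0.7.9a), freed of duplicates (Picard 1.95), and peaks were called per library (MACS2 2.1.0) and merged (DiffBind 2.2.5). Values of a library were whole multiples of its lowest value, which gave back reads for 100% of values (tolerance 0.01 reads). The expected counts and the FPKM values deposited by the authors come from RSEM 1.2.12 after Bowtie2, and the authors report a stranded kit with default counting settings.

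Expected counts were rounded and tested with edgeR 4.0.16 (TMM) in R 4.3.3, among genes with at least 1 FPKM in all libraries of either line, without the 92 spike-in rows (0.436% to 0.971% of counts). Peaks were tested with limma 3.58.1 on log2(value + 1), so fold changes of weak peaks are understated. The study scaled genes with RUVSeq, which was not used here. P-values were adjusted over all features by Benjamini-Hochberg. Alternatives included DESeq2 1.42.0, spike-in scaling, other pseudocounts, filters and normalizations, and leaving out each library. Scripts were tested on simulated data. Replicate numbers did not pair the libraries (correlations of deviations under 0.1). Sequences and gene models came from NCBIM37 and GENCODE vM1, where 67 gene identifiers were absent. Whether the peak table counts positions from 0 or 1 is not given in the sources used here.

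Members and gene lists were chosen with earlier results of these data known. Named were all 5 genes, the peak nearest each start, every DA peak, the 3 nearest genes by pattern, DE neighbours within 100 kb, and of each list the DE genes and up to 4 others. Some items that this rule selects are not reported here. The second Mafk peak, the intronic Mafg peak, the Mafa and Maf peaks short of the threshold, Hmox1, Abcc1, Zc3h3 and the hormone genes Sst and Ppy were named after their values were seen.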

Additional observations from a re-analysis of the deposited data

Results flagged for a closer look

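Among the 60 groups of 5 ATAC-seq libraries (30 peaks in 2 lines), 4 held a library far from the other 4 by Dixon's criterion, which chance alone flags in about 1 of 20 groups. The Maf peak 63.0 kb upstream stood at 29.2 normalized reads in βTC6 replicate 5 and at 8.13 to 10.4 in the others. The same library was the highest at the Maf peak 270.5 kb upstream, at 27.5 against 12.4 to 16.6, and that peak remained DA without it, at a log2 fold change of 2.12. The Mafg intronic peak had 17.5 normalized reads in βTC6 replicate 1 and 10.6 to 12.1 in the others. The Maf peak 99.6 kb upstream had 5.76 normalized reads in αTC1 replicate 2 and 4.37 to 4.77 in the others.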

How the results depend on the processing

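Under the alternatives run, Mafa and Maff stayed DE with log2 fold changes from 5.28 to 8.86 and from 3.82 to 5.93, and 2 members were DE in every one. Maf stayed lower in βTC6 (-0.96 to -0.58). The log2 fold change of Mafg ranged from -0.088 to 0.032 when 1 library was left out and that of Mafk from -0.062 to 0.14. Mafk was -0.042 with spike-in scaling and -0.027 without the FPKM filter. With limma on log2(FPKM + 1) and log2(FPKM + 0.1) Mafk was -0.0035 and -0.0040. Mafg was furthest from its main value there, at -0.177 and -0.181 (adjusted p = 0.117 and 0.116, limma). Genes DE higher in βTC6 and αTC1 numbered 2510 and 1020 without the filter and 702 and 277 with limma on log2(FPKM + 1), beside 1245 and 498.

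DA peaks numbered 8409 and 3502, but 1668 and 819 with a pseudocount of 5, 13794 and 5739 with edgeR on recovered reads, and 5655 and 5126 after quantile normalization. Of the Maf-assigned peaks, 1 (Mafa 8.4 kb upstream) and 0 remained DA with a pseudocount of 5. Those more open in αTC1 numbered 0 with replicates 1 to 3 alone and 2 with replicates 4 and 5 alone, and 0 to 1 when 1 library was left out, the loss coming from βTC6 replicate 5. Those more open in βTC6 numbered 6 to 7 when 1 library was left out. The start of Maf was 0.11 after quantile normalization. In 400 bases 0.467%, 0.0692% and 8.92% of peaks held the MafA consensus, the MafK consensus and the half-site. The cause of these shifts was not tested, apart from the wider window and the larger pseudocount acting by construction.

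The labels do not say that replicate numbers mark shared cultures. With a replicate block 2 members stayed DE (Mafa 7.56, Maff 5.68), DA peaks stayed at 8409 and 3502, and Fos (2.15, adjusted p = 0.0623, edgeR) and Fosb (1.29, adjusted p = 0.314, edgeR) were no longer DE. The filter of 5 normalized reads left 23 of the 30 peaks. Weak peaks of under 3 reads in a library cannot be told from closed ones.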
